A study of Rattus norvegicus with 9 samples.

Results

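The 55 genes described here were lower in BNPMT cells than in both other groups of a rat RNA-seq study of nucleus pulposus cells, the cells of the soft core of the intervertebral disc, while the 2 other groups lay close to each other. They were chosen from group means of CPM, a gene's count scaled to the total count of its library. The mean of SEN and the mean of NC each had to be at least 2 times that of BNPMT, NC had to reach 5 CPM, and SEN and NC had to lie within a factor of 2. Only protein-coding genes entered, and 12 of the 67 genes that met these values were left aside by the prefix of their names, collagens and Slc transporters for the most part, which left 55 of 22324 genes in the table, 17949 of them protein-coding. The mirrored choice, highest only in BNPMT, found 77 genes. The same choice with SEN as the low group found 2407 genes, and with NC as the low group 22.

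The 9 libraries came from polyadenylated RNA of primary cells of wild-type genotype and fell into 3 groups of 3. BNPMT cells carried a label of senescence induced by doxorubicin together with an intervention called BNPMT, a name that the labels do not spell out and for which they give neither dose nor timing. SEN cells, and BNPMT cells by the same protocol text, had received doxorubicin, a DNA-damaging drug. It was given at 200 nM for 24 h, followed by 6 days in fresh medium. NC serves here as the control without drug, going by its title and the series' design text, although the doxorubicin protocol stands on every sample. All cells grew with 10% serum. The labels do not say whether the replicates of a group were separate cultures.

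Nucleus pulposus cells sit in a hydrated matrix of proteoglycans and collagen that they make themselves, and each cell is wrapped in a thin pericellular layer that shares proteins with basement membranes. Around that layer, fibrillin microfibrils and matrix glycoproteins bind growth factors and give the tissue elasticity. Guidance cues of the semaphorin and Slit families, and the Notch, Wnt and Hedgehog pathways, direct cell position and fate in the developing disc and skeleton.

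Total counts were 35094282 to 41971877 per library in BNPMT, 31206834 to 38391586 in SEN and 34514440 to 41873790 in NC, and the lowest count of any of the 55 genes in any library was 30. Of the nucleus pulposus and notochord markers in the table, 8 of 11 reached 1 CPM in a group, while Tbxt, the notochord transcription factor, averaged at most 0.0932 CPM in any group. BNPMT 1 and SEN 1 stood apart from the other libraries of their groups, in a way that followed transcript length, the length in bases implied by the deposited count and FPKM (counts scaled to the library total and to transcript length). Over the 9751 eligible genes, which are the protein-coding genes that were tested, reached 5 CPM in NC and were not left aside by name, the Spearman correlation with length was 0.71 for BNPMT 1 relative to BNPMT 2 and 3 and -0.59 for SEN 1 relative to SEN 2 and 3. In bulk RNA, fewer cells of a kind and less RNA per cell cannot be told apart.

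Sums of marker sets of related cell types differed between the groups as well. The 11 annulus and fibroblast markers all reached 1 CPM in a group. They summed to 20408 to 23574 CPM in BNPMT, 41982 to 42150 CPM in SEN and 43375 to 44970 CPM in NC. Col1a1 was the largest part, with a mean of 13038.7 CPM in BNPMT, 30515.8 CPM in SEN and 30449.5 CPM in NC. Col1a2, Col3a1, Tnmd and, narrowly, Dcn were also lowest in BNPMT. Thy1, Scx and Cd34 were highest in BNPMT, and Lum, Mkx and Pdgfra lay between SEN and NC. The 7 cartilage-like markers, likewise all at 1 CPM or more, summed to 2374 to 2611 CPM in BNPMT, 7852 to 7867 CPM in SEN and 5352 to 5587 CPM in NC. Both sums were lowest in BNPMT without overlap, and the sets hold the collagens Col1a1 and Col2a1, which met the limits of the choice and were left aside by name. The nucleus pulposus and notochord markers summed to 1816 to 2061 CPM in BNPMT, 1320 to 1495 CPM in SEN and 1377 to 1388 CPM in NC. This sum was highest in BNPMT, but its markers differed. Lgals3 carried a large part of it, with a mean of 895.6 CPM in BNPMT, 358.8 CPM in SEN and 443.9 CPM in NC. Of the 8 markers at 1 CPM or more, Lgals3 and Pax1 were highest in BNPMT and Krt8 was lowest there. Cd24, Car3, Foxf1, Nog and Bsg lay between SEN and NC. None of these 3 sets holds any of the 55 genes, and their part in the values of the 55 was not tested.

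The sequences around the start of transcription are shown for the 4 genes of the matrix and guidance groups that were most abundant in NC by CPM and had an entry in the RefSeq promoter table of build GRCr8. Each runs 5′ to 3′ over 250 bases before and 50 bases after the start, and capitals mark every match to a motif named below, on either strand. They lie at chr5:154960596-154960895 on the + strand (Hspg2), chr18:53901943-53902242 on the - strand (Fbn2), chr8:74672198-74672497 on the + strand (Cilp) and chr4:23460922-23461221 on the - strand (Sema3d).
Hspg2: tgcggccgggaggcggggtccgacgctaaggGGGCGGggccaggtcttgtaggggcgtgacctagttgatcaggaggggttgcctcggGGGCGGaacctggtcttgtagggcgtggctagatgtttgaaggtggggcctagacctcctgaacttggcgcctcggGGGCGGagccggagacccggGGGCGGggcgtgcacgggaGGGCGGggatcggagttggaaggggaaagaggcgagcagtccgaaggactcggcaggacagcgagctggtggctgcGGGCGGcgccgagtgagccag
Fbn2: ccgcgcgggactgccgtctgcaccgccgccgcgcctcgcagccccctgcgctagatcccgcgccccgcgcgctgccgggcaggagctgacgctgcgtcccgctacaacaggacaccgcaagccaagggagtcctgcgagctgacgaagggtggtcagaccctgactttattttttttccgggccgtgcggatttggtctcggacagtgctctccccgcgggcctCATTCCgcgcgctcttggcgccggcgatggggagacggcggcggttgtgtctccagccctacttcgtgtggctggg
Cilp: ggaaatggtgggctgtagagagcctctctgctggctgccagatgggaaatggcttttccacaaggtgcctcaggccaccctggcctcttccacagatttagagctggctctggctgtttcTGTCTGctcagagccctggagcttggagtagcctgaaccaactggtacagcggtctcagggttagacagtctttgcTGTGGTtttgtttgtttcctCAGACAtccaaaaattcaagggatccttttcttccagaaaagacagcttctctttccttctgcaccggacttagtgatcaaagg
Sema3d: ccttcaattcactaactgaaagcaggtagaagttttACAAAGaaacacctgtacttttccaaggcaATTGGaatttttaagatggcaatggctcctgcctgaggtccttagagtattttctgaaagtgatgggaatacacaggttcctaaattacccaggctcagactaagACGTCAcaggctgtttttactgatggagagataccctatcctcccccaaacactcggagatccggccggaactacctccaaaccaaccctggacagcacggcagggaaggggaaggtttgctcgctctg
The Hspg2 window held repeated GC boxes (GGGCGG) and 70% G and C. The Fbn2 window held 1 match to GGAATG, the core bound by TEAD factors. Cilp, with 51% G and C and 2 CpG, held CAGACA, the letters of a SMAD element, and ACCACA, a RUNX core. Sema3d held a CCAAT box, a core found within the cAMP response element (TGACGT) and a SOX core (ACAAAG). These windows shared no motif among all 4 of them.

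Promoter entries were matched for 44 of the 55 genes and for 8112 eligible genes. The GC box was in 59.1% of the 44 promoters and 65.8% of all of them, and CCAAT in 20.5% and 38.1%. TATAAA was in 9.09% and 5.93%, GGAATG in 13.6% and 10.7%, CAGACA in 20.5% and 14.8%, the E-box CACGTG in 15.9% and 10.1%, and ACAAAG in 15.9% and 12.4%. TGACGT was in 9.09% and 13% of them, ACCACA in 6.82% and 11.6%, and the AP-1 element (TGAGTCA or TGACTCA) in 2.27% and 3.03%. The median share of G and C was 66.7% in the 44 promoters and 61.7% in all of them, with a median of 23 and 22 CpG. Each share is a description of letters in these windows. The largest gap was that of CCAAT, which was the less frequent one in the 44 promoters.

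Taken as a sum, the 55 genes made up 1803, 1239 and 1325 CPM in BNPMT 1, 2 and 3, 3433, 4044 and 4233 CPM in SEN 1, 2 and 3, and 3846, 3615 and 3561 CPM in NC 1, 2 and 3. That is a mean of 0.146% of the library in BNPMT, 0.39% in SEN and 0.367% in NC. The 3 BNPMT libraries were lowest and did not overlap either other group, whereas the SEN and NC sums overlapped. A single gene, Hspg2, carried a large share, and without it the sums were 646 to 975.8 CPM in BNPMT, 2222 to 2668 CPM in SEN and 2064 to 2216 CPM in NC.

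All 55 genes were chosen on these group means, so their calls and folds describe the choice and carry no test. With edgeR's quasi-likelihood test, 55 of 55 were called lower in BNPMT against SEN, where 39.9% of the tested genes were called lower, and 55 of 55 against NC, where 26.5% were. Called lower in both contrasts, which share the BNPMT libraries, were 16.5% of the tested genes. Every BNPMT library lay below every SEN and NC library in 55 of 55 genes, against 9.61% of all tested genes. The fold of SEN over BNPMT had a median of 3.15 and that of NC over BNPMT a median of 2.46. The smaller fold of the 2 was at least 3 in 16 genes and below 2.5 in 30. In the heat map of 53 of the genes the BNPMT columns are blue in each row, and the SEN columns vary in colour from gene to gene.

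**Figure D1:**
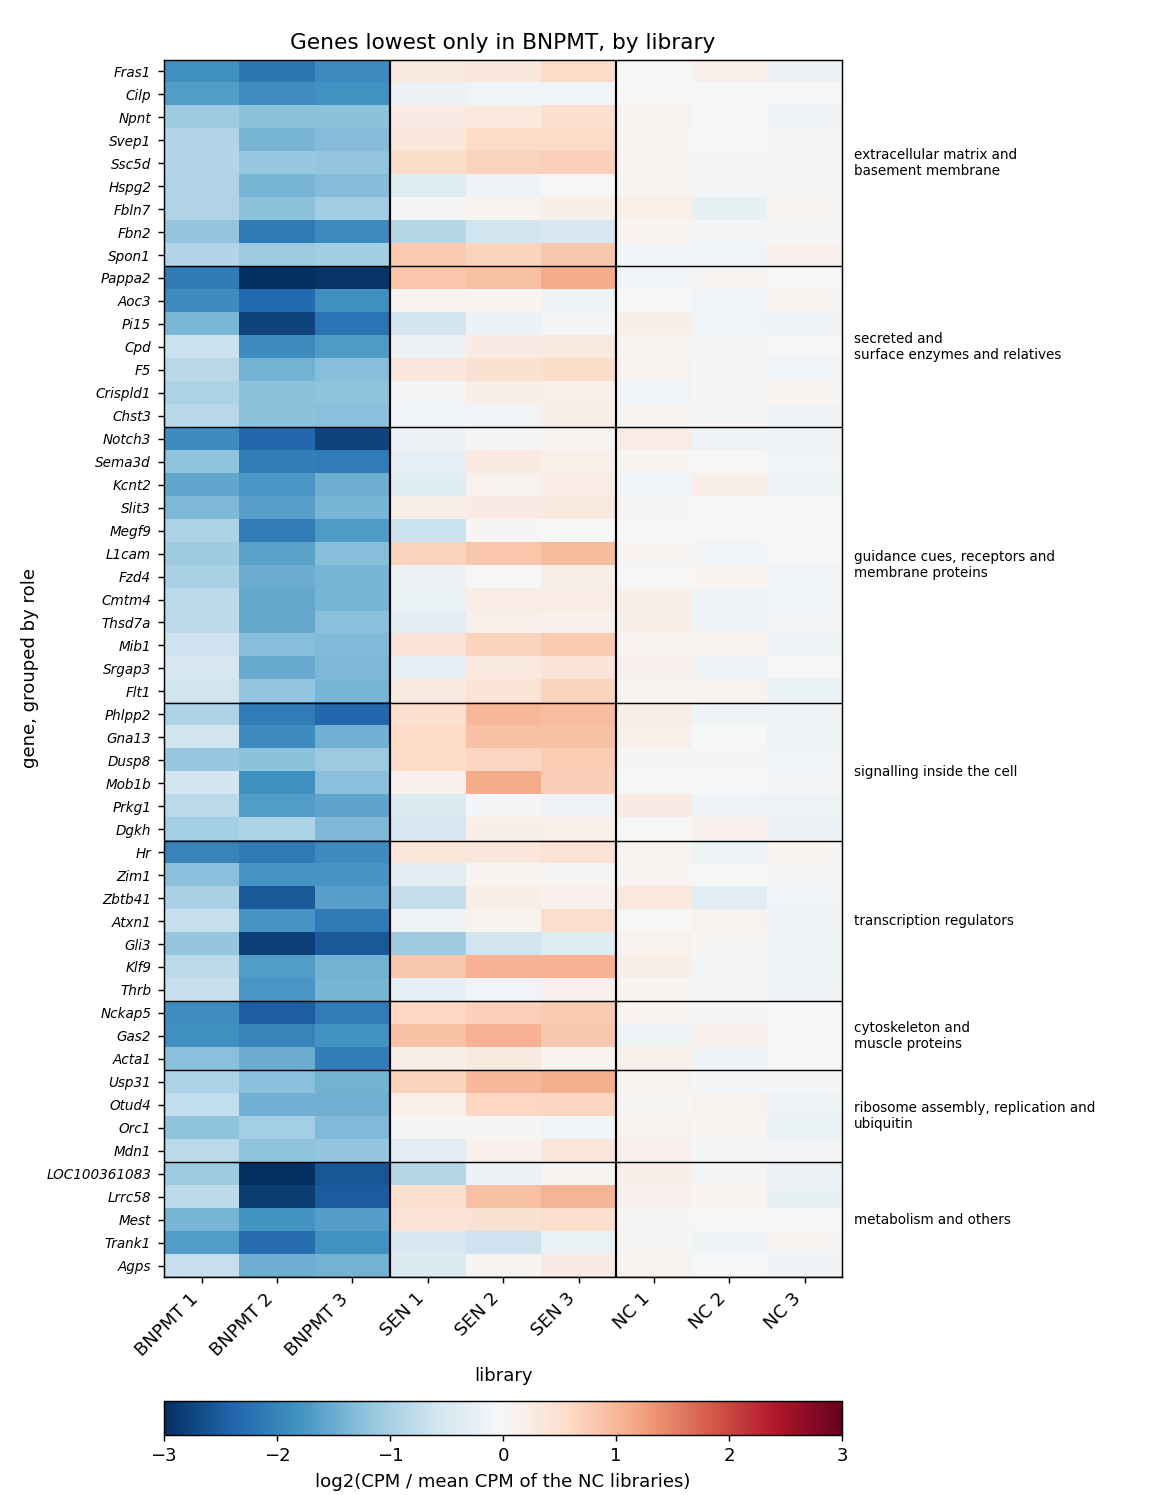
Heat map of 53 of the 55 genes (rows, grouped by role) in the 9 libraries (columns: BNPMT, SEN, NC), coloured by log2 of CPM over the mean CPM of the 3 NC libraries. BNPMT is below NC in all rows, BNPMT 1 is often the palest BNPMT column, and SEN lies above the NC mean in 37 of these genes and below it in 16.

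The matrix and basement membrane group had 9 genes, with a median fold of 3.17 for SEN over BNPMT and 2.25 for NC over BNPMT. Perlecan, the product of Hspg2, is the large heparan sulfate proteoglycan of basement membranes and of the pericellular layer of disc and cartilage cells. Hspg2 had 827, 593 and 627 CPM in BNPMT 1, 2 and 3, 1211, 1442 and 1565 CPM in SEN and 1629.8, 1509.8 and 1497 CPM in NC. The BNPMT libraries were the lowest of all, SEN 1 was the lowest of the SEN libraries, and SEN and NC overlapped. Fbn2 encodes fibrillin 2, a microfibril protein prominent in development, and had 109.5, 55.99 and 64.9 CPM in BNPMT, 136, 163 and 173 CPM in SEN and 256, 239.7 and 241 CPM in NC. The 3 groups did not overlap for Fbn2, which was intermediate in SEN on the CPM scale. Cilp encodes cartilage intermediate layer protein, which binds TGF-beta and is linked to lumbar disc disease in humans. It had 70.2, 61.2 and 63.7 CPM in BNPMT, 198, 211 and 210.2 CPM in SEN and 226, 222 and 221 CPM in NC, and the libraries within each group were close together.

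Svep1 encodes a large secreted adhesion protein that binds integrin. It had 58.8, 41.2 and 43.5 CPM in BNPMT, 136, 164 and 159 CPM in SEN and 112, 107 and 103 CPM in NC. Ssc5d encodes a secreted scavenger receptor protein and had 65.2, 54.9 and 53.3 CPM in BNPMT, 177, 195 and 198 CPM in SEN and 128, 115 and 119 CPM in NC. In both genes every SEN library was above every NC library. Fras1, whose product anchors epithelium to the basement membrane and is mutated in Fraser syndrome, had 4.02, 3.16 and 3.79 CPM in BNPMT, 17.2, 18.0 and 21.3 CPM in SEN and 14.3, 15.9 and 12.8 CPM in NC. Its fold of NC over BNPMT, 3.92, was the highest of the 9. Spon1, which encodes F-spondin, had 4.496, 3.90 and 4.03 CPM in BNPMT, 14.3, 13.3 and 14.5 CPM in SEN and 7.91, 7.90 and 9.15 CPM in NC. It lay just inside the 2-fold limit with a smaller fold of 2.01, as did Fbn2 with 2.05. The integrin ligand Npnt averaged 22.6 ± 1.5 CPM in BNPMT, 65.3 ± 6.39 CPM in SEN and 50.9 ± 3.74 CPM in NC (SD, n = 3 each, as for the means that follow). The adhesion protein Fbln7 averaged 4.10 ± 0.463 CPM in BNPMT, 8.94 ± 0.615 CPM in SEN and 8.43 ± 1.07 CPM in NC.

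**Figure D2:**
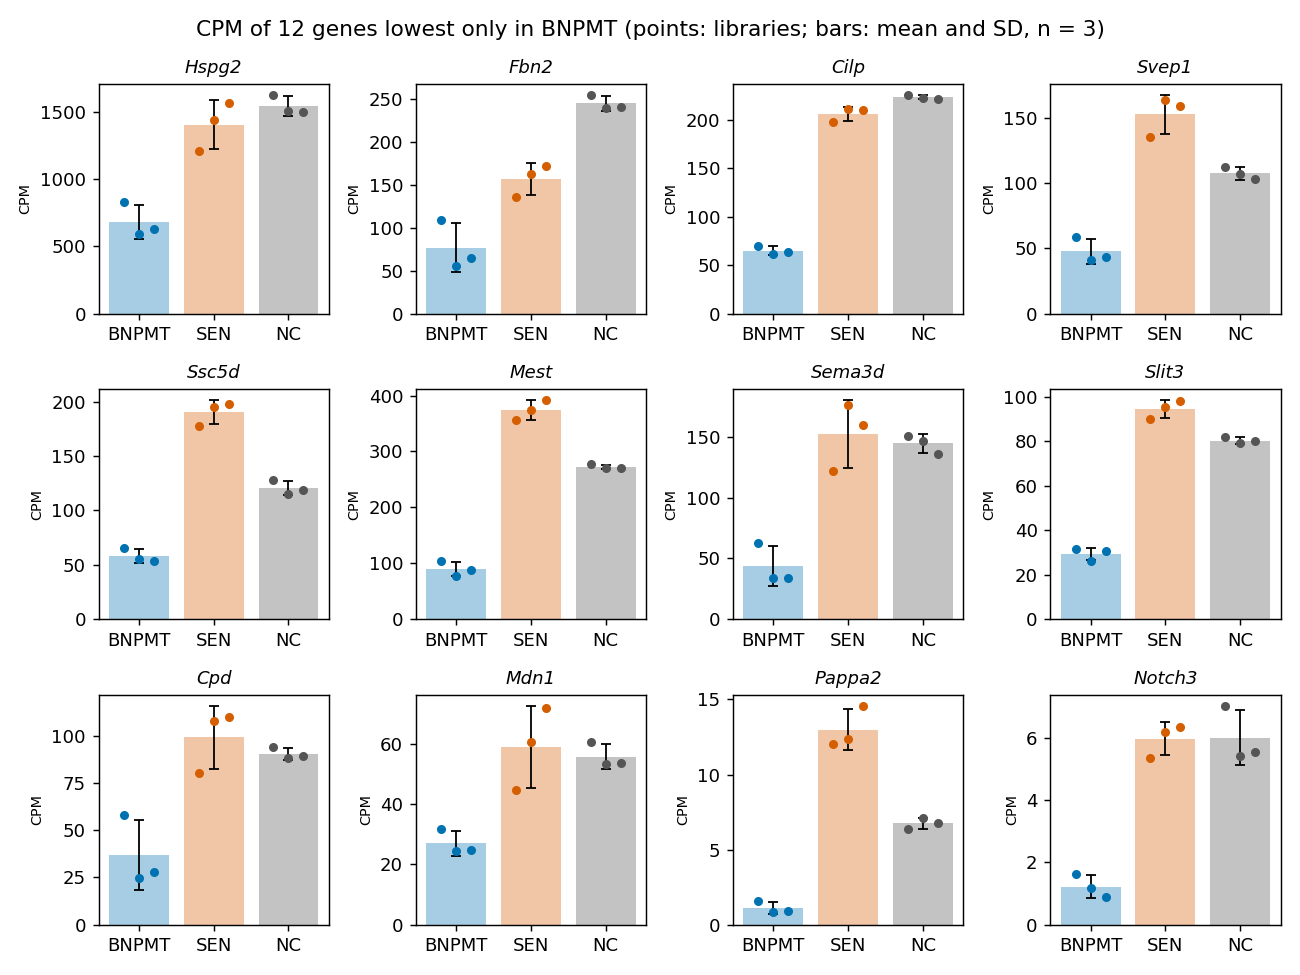
CPM (linear axes from 0) of 12 of the 55 genes by group, with a point for each library and bars for the mean and SD (n = 3): the 10 most abundant in NC, and Pappa2 and Notch3, the largest by the smaller fold. The BNPMT points lie below all others in each panel, and SEN points lie above the NC points in Svep1, Ssc5d, Mest, Slit3 and Pappa2 but below them in Fbn2 and Cilp. These orders follow total counts. In the edgeR test, which scales libraries by TMM, Cilp was called higher in SEN than in NC and Fbn2 was not called.

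The secreted and surface enzymes and their relatives, 7 genes, held the gene with the largest smaller fold of all 55. Pappa2 encodes a secreted protease that cleaves insulin-like growth factor binding proteins and so frees the growth factor. It had 1.56, 0.855 and 0.882 CPM in BNPMT, 12.1, 12.3 and 14.6 CPM in SEN and 6.35, 7.11 and 6.76 CPM in NC, which made SEN 11.9 times and NC 6.14 times the BNPMT mean. The groups did not overlap, and SEN was the highest. Aoc3, a surface amine oxidase also known as vascular adhesion protein, had 3.23, 2.39 and 3.34 CPM in BNPMT, 12.6, 12.6 and 11.03 CPM in SEN and 11.9, 11.3 and 12.8 CPM in NC. Its SEN and NC libraries overlapped. Cpd encodes carboxypeptidase D, which trims peptides in the Golgi, and had 58.2, 24.7 and 28.1 CPM in BNPMT, 80.2, 108 and 110.3 CPM in SEN and 94.3, 88.3 and 89.3 CPM in NC. BNPMT 1 was 2.21 times the mean of the other BNPMT libraries and still below all SEN and NC libraries.

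Pi15 and Crispld1, secreted proteins of the CAP family, are direct neighbours on the rat chromosome in RefSeq's GRCr8 annotation, and both were among the 55. Pi15 had 4.496, 1.71 and 2.502 CPM in BNPMT, 7.92, 10.3 and 11.2 CPM in SEN and 13.1, 10.99 and 10.8 CPM in NC. Crispld1 had 11.46, 9.49 and 9.65 CPM in BNPMT, 21.9, 25.5 and 24.6 CPM in SEN and 20.9, 22.7 and 23.2 CPM in NC. They were the only pair of the 55 to adjoin each other. Coagulation factor V, encoded by F5, averaged 15.1 ± 3.28 CPM in BNPMT, 46.1 ± 3.12 CPM in SEN and 33.6 ± 2.32 CPM in NC. Chst3, a sulfotransferase of chondroitin chains whose loss causes a skeletal dysplasia in humans, averaged 2.78 ± 0.473 CPM in BNPMT, 6.04 ± 0.699 CPM in SEN and 5.92 ± 0.360 CPM in NC.

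The guidance cues, receptors and membrane proteins were 12 genes, with a median fold of 2.9 for SEN over BNPMT and 2.44 for NC over BNPMT. Of the secreted ligands, the semaphorin Sema3d had 62.7, 34.3 and 33.6 CPM in BNPMT, 122, 176 and 159.7 CPM in SEN and 151, 147 and 136 CPM in NC. Slit3, a ligand of Robo receptors, had 31.5, 26.0 and 30.5 CPM in BNPMT, 90.0, 95.4 and 98.0 CPM in SEN and 82.0, 79.1 and 79.9 CPM in NC. BNPMT 1 was well above BNPMT 2 and 3 for Sema3d, whereas the 3 BNPMT libraries were close together for Slit3, and of this pair Slit3 alone had every SEN library above every NC library. Srgap3, which acts downstream of Robo, averaged 5.79 ± 2.37 CPM in BNPMT, 13.2 ± 3.05 CPM in SEN and 11.9 ± 1.07 CPM in NC. The adhesion molecule L1cam averaged 18.8 ± 3.44 CPM in BNPMT, 82.3 ± 7.05 CPM in SEN and 46.3 ± 2.54 CPM in NC. L1cam was 1.78 times as high in SEN as in NC.

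Among the receptors, Notch3, which marks pericytes and vascular smooth muscle in many tissues, had 1.63, 1.17 and 0.882 CPM in BNPMT, 5.37, 6.19 and 6.36 CPM in SEN and 7.04, 5.43 and 5.56 CPM in NC. SEN and NC overlapped, and their means were 4.87 and 4.91 times that of BNPMT. The smooth muscle and pericyte markers, Notch3 included, summed to 2813 to 3026 CPM in BNPMT, 1472 to 1636 CPM in SEN and 4757 to 4788 CPM in NC, with 8 of 9 at 1 CPM or more in a group and Rgs5 at or near 0. That order, lowest in SEN, was not the order of Notch3, and the part of these markers in its values was not tested. Mib1, a ubiquitin ligase needed by the cells that send Notch signals, averaged 14.4 ± 4.13 CPM in BNPMT, 45.9 ± 6.36 CPM in SEN and 29.7 ± 2.31 CPM in NC. The Wnt and Norrin receptor Fzd4 averaged 15.7 ± 3.06 CPM in BNPMT, 38.5 ± 4.93 CPM in SEN and 37.9 ± 1.76 CPM in NC.

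Flt1, a receptor of vascular endothelial growth factor, had 7.84, 5.33 and 4.53 CPM in BNPMT, 14.4, 15.8 and 19.0 CPM in SEN and 12.6, 12.7 and 10.3 CPM in NC, and with a smaller fold of 2.01 it was the gene nearest the limit on the inside. The 7 endothelial markers summed to 0.981 to 1.54 CPM in BNPMT, 4.95 to 5.54 CPM in SEN and 1.04 to 1.55 CPM in NC. Of them 6 stayed below 1 CPM in all groups. Outside the limit, the nearest genes were Abca5 with 1.98, Hycc1 with 1.98 and Naaladl2 with 1.97. These 3 missed the choice by their fold and met its other limits. The EGF-repeat protein Megf9 averaged 7.07 ± 3.03 CPM in BNPMT, 17.8 ± 4.35 CPM in SEN and 19.9 ± 0.285 CPM in NC. Thsd7a, a thrombospondin-domain membrane protein, averaged 12.4 ± 3.26 CPM in BNPMT, 27.7 ± 4.79 CPM in SEN and 27.7 ± 3.04 CPM in NC. The sodium-activated potassium channel Kcnt2 averaged 1.81 ± 0.168 CPM in BNPMT, 5.46 ± 1.10 CPM in SEN and 5.42 ± 0.736 CPM in NC, and the MARVEL-domain protein Cmtm4 4.25 ± 1.2 CPM in BNPMT, 10.5 ± 1.71 CPM in SEN and 9.81 ± 1.23 CPM in NC.

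The 6 genes of signalling inside the cell had a median fold of 3.55 for SEN over BNPMT and 2.27 for NC over BNPMT, and SEN was above NC in 4 of them. Phlpp2, a phosphatase that acts on Akt, averaged 2.69 ± 1.53 CPM in BNPMT, 14.9 ± 2.77 CPM in SEN and 8.42 ± 1.11 CPM in NC. The G protein subunit Gna13 averaged 3.78 ± 1.81 CPM in BNPMT, 15.1 ± 1.63 CPM in SEN and 8.73 ± 0.956 CPM in NC. All SEN libraries lay above all NC libraries in both. Dusp8, a phosphatase of stress-activated kinases, averaged 7.61 ± 0.350 CPM in BNPMT, 26.8 ± 1.89 CPM in SEN and 16.9 ± 0.723 CPM in NC. The Hippo pathway co-activator Mob1b averaged 8.86 ± 3.82 CPM in BNPMT, 31.8 ± 10.5 CPM in SEN and 19.4 ± 0.356 CPM in NC. The same held for Dusp8 and Mob1b, and Mob1b had the widest relative spread of the 55 in SEN. Prkg1, the kinase activated by cyclic GMP, averaged 4.92 ± 1.74 CPM in BNPMT, 10.7 ± 1.40 CPM in SEN and 12.1 ± 1.94 CPM in NC, and the diacylglycerol kinase Dgkh averaged 5.06 ± 0.707 CPM in BNPMT, 10.7 ± 2.67 CPM in SEN and 10.8 ± 1.15 CPM in NC. Both had overlapping SEN and NC libraries.

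Transcription regulators numbered 7, and SEN was above NC in 3 and below it in 4. Hr, a nuclear receptor corepressor and histone demethylase known from hairless mice, had 4.62, 4.22 and 4.98 CPM in BNPMT, 23.7, 23.4 and 24.8 CPM in SEN and 19.6, 16.5 and 19.0 CPM in NC. Its BNPMT libraries were close together. Thrb, a receptor of thyroid hormone to which Hr binds, averaged 5.17 ± 1.98 CPM in BNPMT, 11.4 ± 1.54 CPM in SEN and 11.95 ± 0.694 CPM in NC, and Klf9, which thyroid hormone and glucocorticoids induce in other tissues, averaged 11.5 ± 3.73 CPM in BNPMT, 53.7 ± 5.17 CPM in SEN and 27.4 ± 3.24 CPM in NC. Klf9 was 1.96 times as high in SEN as in NC, close to the limit of the choice. Gli3, the Hedgehog pathway factor that is processed to a repressor, averaged 8.48 ± 5.56 CPM in BNPMT, 21.3 ± 4.82 CPM in SEN and 33.4 ± 2.75 CPM in NC and had the lowest ratio of SEN to NC, 0.637. For Gli3 all SEN libraries were below all NC libraries on the CPM scale, and edgeR, with TMM scaling, did not call this difference. Atxn1, a transcriptional repressor with a polyglutamine tract in humans, averaged 3.30 ± 1.80 CPM in BNPMT, 9.88 ± 2.36 CPM in SEN and 8.67 ± 0.650 CPM in NC. The zinc finger genes Zim1 and Zbtb41 averaged 6.38 ± 1.36 CPM in BNPMT, 18.4 ± 2.64 CPM in SEN and 19.0 ± 0.824 CPM in NC and 2.26 ± 1.14 CPM in BNPMT, 6.43 ± 1.99 CPM in SEN and 6.75 ± 1.53 CPM in NC.

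Cytoskeleton and muscle proteins numbered 5, of which 3 are described. Gas2, which links actin and microtubules and was first found in growth-arrested cells, had 9.66, 8.63 and 9.98 CPM in BNPMT, 64.2, 71.9 and 61.0 CPM in SEN and 31.6, 37.8 and 34.7 CPM in NC. Nckap5, annotated as an NCK-associated protein, had 1.94, 1.28 and 1.64 CPM in BNPMT, 10.9, 11.6 and 12.3 CPM in SEN and 7.33, 6.94 and 6.97 CPM in NC. For both, each SEN library was above each NC library. Skeletal muscle actin, Acta1, averaged 1.89 ± 0.513 CPM in BNPMT, 6.33 ± 0.480 CPM in SEN and 5.60 ± 0.561 CPM in NC. The skeletal muscle markers, Acta1 among them, summed to 1.36 to 2.37 CPM in BNPMT, 8.648 to 8.964 CPM in SEN and 5.34 to 6.35 CPM in NC, with 2 of 5 at 1 CPM or more. In BNPMT and NC this sum was almost Acta1 alone, with Myod1, Ckm and Ttn at 0 CPM and Myh3 averaging 0.0254 and 0.147 CPM. In SEN, Ttn averaged 1.44 CPM and Ckm 0.922 CPM. The part of these markers in the result was not tested.

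Ribosome assembly, replication or ubiquitin removal is the role of 4 of the genes. The ribosome assembly ATPase Mdn1 had 31.8, 24.3 and 24.8 CPM in BNPMT, 44.6, 60.5 and 71.7 CPM in SEN and 60.4, 53.2 and 53.4 CPM in NC, with SEN and NC overlapping. The deubiquitinases Usp31 and Otud4 averaged 8.32 ± 1.41 CPM in BNPMT, 35.5 ± 4.99 CPM in SEN and 19.0 ± 1.26 CPM in NC and 8.16 ± 2.40 CPM in BNPMT, 25.7 ± 4.5 CPM in SEN and 18.4 ± 1.68 CPM in NC. Orc1, the largest subunit of the origin recognition complex that loads the replication helicase, averaged 3.69 ± 0.404 CPM in BNPMT, 8.27 ± 0.327 CPM in SEN and 8.39 ± 0.923 CPM in NC. Orc1 differed from Usp31 and Otud4 in that its SEN and NC libraries overlapped.

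The remaining 5 genes belong to metabolism or have no such role. Mest, an imprinted gene expressed from the paternal allele in mice, had 104, 78.0 and 87.4 CPM in BNPMT, 356, 374 and 392 CPM in SEN and 277, 270.2 and 270.2 CPM in NC. On the FPKM scale, which allows genes to be compared, it had the highest NC level of the 55, 202 FPKM, followed by Hspg2 with 105 FPKM, Cilp with 54.0 FPKM and Sema3d with 29.4 FPKM. Zim1, described above, is imprinted too in mice and lies beside Peg3 in the GRCr8 annotation. Peg3 averaged 285.7 CPM in BNPMT, 649 CPM in SEN and 395 CPM in NC, and Copg2, a neighbour of Mest, averaged 76.8 CPM in BNPMT, 28.0 CPM in SEN and 62.4 CPM in NC. Lrrc58 had 13.4, 3.19 and 4.05 CPM in BNPMT, 32.3, 42.6 and 46.4 CPM in SEN and 25.2, 24.0 and 19.8 CPM in NC. In BNPMT 1 it stood at 3.70 times the mean of BNPMT 2 and 3, and only LOC100361083, which averaged 4.90 ± 4.13 CPM in BNPMT, 16.7 ± 5.04 CPM in SEN and 20.3 ± 2.74 CPM in NC, exceeded that with 3.72. Agps, an enzyme of ether lipid synthesis, averaged 11.5 ± 3.72 CPM in BNPMT, 25.3 ± 5.65 CPM in SEN and 25.3 ± 1.82 CPM in NC, and Trank1 averaged 1.44 ± 0.292 CPM in BNPMT, 4.01 ± 0.616 CPM in SEN and 5.38 ± 0.384 CPM in NC.

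The members differed in how SEN stood to NC, a ratio that the choice held within a factor of 2. On the CPM scale its median was 1.08, and it was at least 1.5 in 14 genes, within a factor of 1.25 in 30, and lowest in Gli3 (0.637), Fbn2 (0.641) and Trank1 (0.746). Every SEN library was above every NC library in 23 genes, where 25.3% of the tested genes were so placed, and below in 4 genes, where 58.1% were. The call depended on the scale. With TMM scaling 46 of the 55 were called higher in SEN (edgeR) and the other 9 were not called, beside 37.6% of the tested genes called higher. With total counts alone 23 were higher and 3 lower, beside 24.5% and 56.9%, and the median log2 change of all genes was -0.465 in place of -0.01. With each library's trend with length taken out, 27 were higher and 1 lower, beside 29.4% and 52%. Taking out the trend also moved the level of each library as a whole. In BNPMT against SEN all 55 were called lower on both of these scales too, beside 25.8% called lower and 57.3% higher with total counts alone, and 31% lower and 52.4% higher with the length trend taken out. In BNPMT against NC they were again all called lower, beside 22.5% lower and 30.2% higher with total counts alone, and 22.4% lower and 23.5% higher with the length trend taken out.

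Transcript length was not used in the choice. The 55 genes had a median of 5009 bases, against 3349 bases for the 9751 eligible genes and 1471 bases for the 77 genes highest only in BNPMT. Of the 55, 18.2% were 10000 bases or longer, against 7.02% of the eligible genes, and 12.7% were shorter than 2000 bases, against 25%. Over the eligible genes, log2 of BNPMT over NC had a Spearman correlation of -0.62 with length, BNPMT over SEN one of -0.25 and SEN over NC one of -0.02, as descriptions across genes that share 9 libraries. Among the 55 genes these correlations were 0.01, 0.12 and -0.03. The choice bounds these same 3 ratios among the 55, which flattens such correlations, so they cannot be compared with those of the eligible genes. With each library's length trend taken out, the choice found 48 genes, 34 of them among the 55. Of the 21 that were lost, 14 fell below the 2-fold limit, among them Hspg2, Fbn2, Svep1, Ssc5d and Mdn1, 5 had SEN and NC more than a factor of 2 apart, Pappa2 and Gas2 among them, and 2 fell below the NC level. Even so 53 of the 55 genes kept a smaller fold of at least 1.5, from 1.45 in Dgkh to 5.16 in Pappa2.

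**Figure D3:**
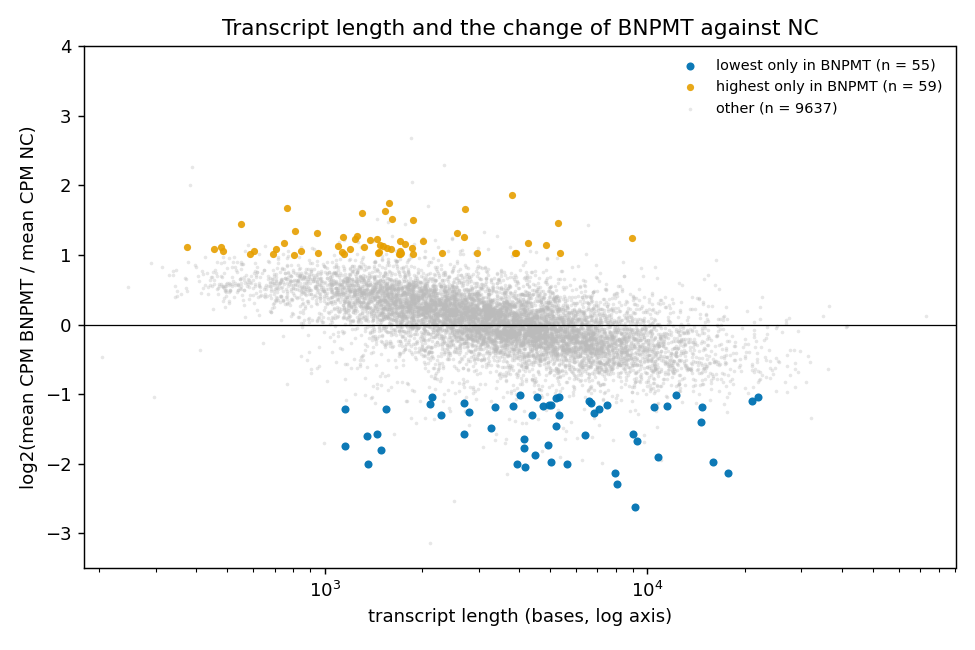
Log2 of mean CPM in BNPMT over NC (y axis) against transcript length in bases (log axis) for 9751 eligible genes, with the 55 genes lowest only in BNPMT in blue and the 59 genes highest only in BNPMT that are eligible in orange. The cloud slopes down with length (Spearman -0.62), and the blue points lie to the right of the orange ones.

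The library that stood apart in BNPMT held higher values for these genes. BNPMT 1 was the highest BNPMT library in 47 of the 55, against 45.3% of all tested genes, with a median of 1.41 times the mean of BNPMT 2 and 3, against 1.02 over all tested genes. SEN 1 was the lowest SEN library in 47, against 39.2% of all tested genes, with a median of 0.824 times the other SEN libraries, against 0.987. Within the 55 genes the excess in BNPMT 1 had a Spearman correlation of -0.19 with length. Without BNPMT 1 and SEN 1 all 55 met the fold limit. Leaving out a high BNPMT and a low SEN library mostly raises the folds, so this outcome carries no test. The choice then found 85 genes, 53 of the 55 among them. Klf9 and Usp31 were lost because SEN and NC were more than a factor of 2 apart. Leaving out BNPMT 2 alone lost 12 of the 55, and leaving out BNPMT 3 alone lost 8. The spread of the 55 genes within groups was wider in BNPMT, with a median coefficient of variation of 21.3% in BNPMT, 12.8% in SEN and 7.35% in NC.

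**Figure D4:**
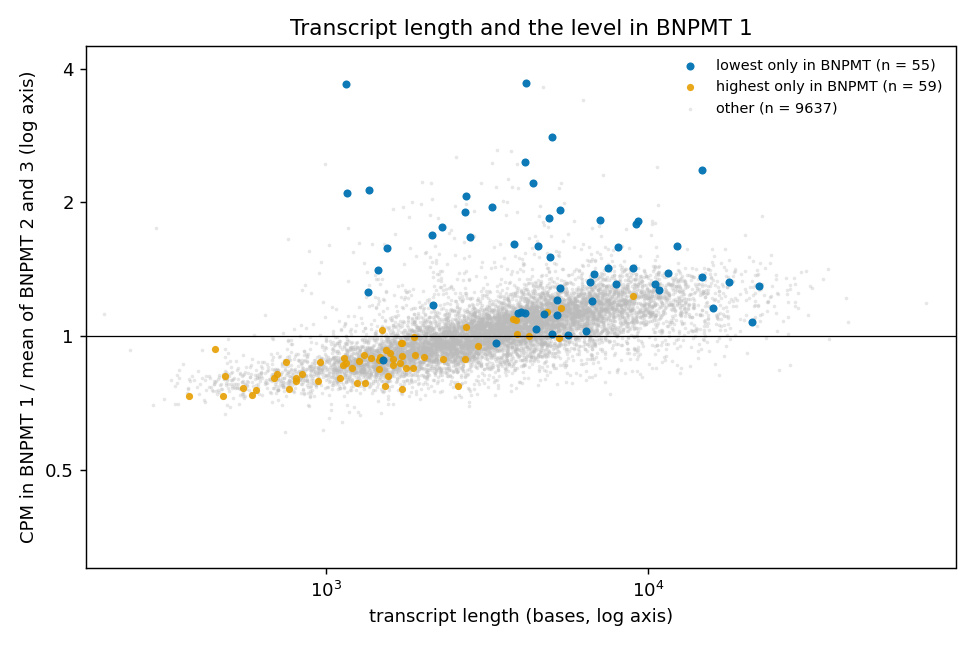
CPM in BNPMT 1 over the mean of BNPMT 2 and 3 (y axis, log) against transcript length in bases (log axis) for the same genes and colours. The cloud rises with length (Spearman 0.71), and most blue points lie above 1, some far above the cloud at their length.

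Gene Ontology terms in the deposited annotation, present for 53 of the 55 genes and for 9526 eligible genes, were counted without a test. The term extracellular space was held by 14 genes, 26.4% against 4.76% of eligible genes, and extracellular matrix by 7, 13.2% against 0.945%. Basement membrane was held by Fras1, Hspg2, Megf9 and Npnt, 7.55% against 0.483%, and calcium ion binding by 9 genes, 17% against 2.96%. Plasma membrane was held by 14 genes, 26.4% against 17.6%. Cytosol was held by 7 genes, 13.2% against 27.6%, nucleus by 16, 30.2% against 36.1%, and mitochondrion by 0, against 13%.

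**Figure D5:**
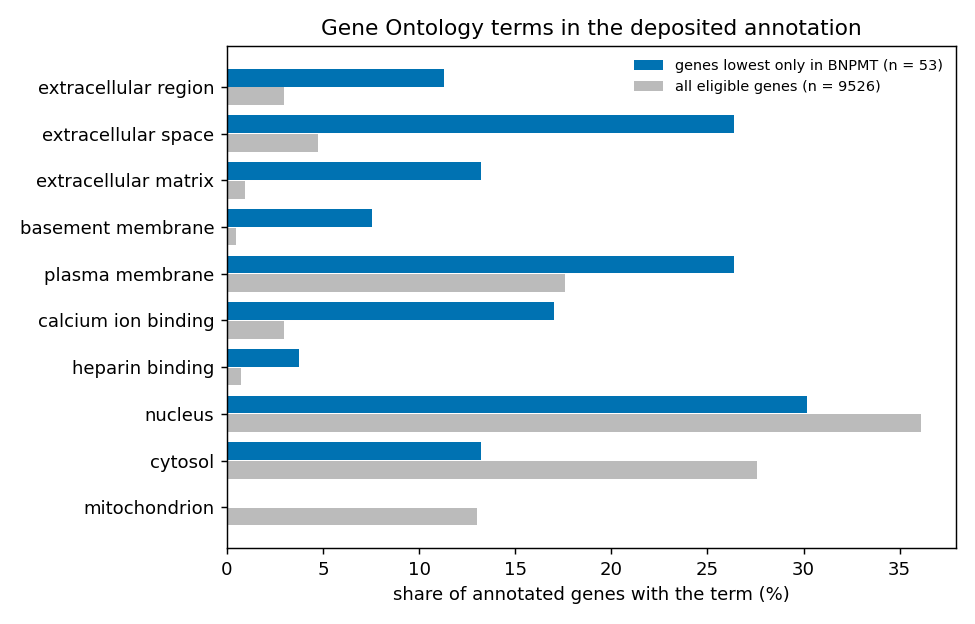
Share (percent) of annotated genes with each of 10 Gene Ontology terms among the 55 genes (53 annotated, blue) and among the 9526 annotated eligible genes (grey). The blue bars are longer for the extracellular terms, for the membrane terms and for calcium ion and heparin binding, and shorter for nucleus and cytosol, with no blue bar for mitochondrion.

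Other genes of the same families were counted from lists of symbols, leaving the 55 genes out, with edgeR's quasi-likelihood test and Benjamini-Hochberg adjustment over all genes. Of 76 other matrix glycoprotein genes, 45 were lower and 17 higher in BNPMT against SEN, and 41 were lower and 10 higher against NC, where 39.9% and 26.5% of all tested genes were lower and 40.7% and 26.3% higher. Against SEN the balance was narrower on other scales, with 42 lower and 27 higher once the length trend was taken out and 40 lower and 28 higher with total counts alone. Elastin, Eln, fell to 49.7 ± 1.31 CPM in BNPMT, against 732 ± 17.1 CPM in SEN and 235.3 ± 3.62 CPM in NC (SD, n = 3 each; adjusted p = 7.64e-16 against SEN and 9.15e-12 against NC). Smoc2, a matrix protein that binds growth factor regulators, was higher with 278 CPM in BNPMT, against 44.1 CPM in SEN and 136 CPM in NC (adjusted p = 6.96e-13 against SEN and 3.4e-08 against NC). In both genes the 3 groups did not overlap. Of 84 other proteoglycan genes, 48 were lower and 24 higher against SEN, and 42 lower and 12 higher against NC. Against SEN this balance narrowed too, to 42 lower and 32 higher with the length trend taken out and 42 lower and 34 higher with total counts alone. The small leucine-rich proteoglycan Fmod averaged 99.6 CPM in BNPMT, 626 CPM in SEN and 219 CPM in NC (adjusted p = 6.49e-15 against SEN and 3.11e-09 against NC).

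Of 40 other Notch and Hedgehog genes, 28 were lower and 6 higher in BNPMT against SEN, and 23 lower and 4 higher against NC. Against SEN the counts came to 18 lower and 13 higher with the length trend taken out and to 15 lower and 11 higher with total counts alone. The Notch ligand Jag1 averaged 16.6 CPM in BNPMT, 16.9 CPM in SEN and 48.0 CPM in NC (adjusted p = 0.000195 against SEN and 5.65e-08 against NC), so that on the CPM scale it was low in SEN as well. The guidance list goes by symbol and also took in leucine-rich repeat genes such as Lrrn2 and Lrrn3, as it did Lrrc58 of the 55. Of its 123 other genes, 61 were lower and 41 higher against SEN, and 55 lower and 15 higher against NC. The count against SEN turned round with the length trend taken out (46 lower, 54 higher) and with total counts alone (44 lower, 53 higher). Over all tested genes these settings gave 31% lower and 52.4% higher, and 25.8% lower and 57.3% higher. Against NC the count of the list was 46 lower and 24 higher with the length trend taken out. Sema3e, a relative of Sema3d, averaged 23.6 CPM in BNPMT, 13.6 CPM in SEN and 47.9 CPM in NC (adjusted p = 0.00275 against SEN and 1.77e-07 against NC).

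Contractile proteins and kinases were lists that held 2 of the 55 genes each. Against NC, 80 of 164 contractile genes were lower and 22 higher in BNPMT, as were 145 and 74 of 406 genes on the kinase and phosphatase list. That list goes by symbol and also took in Cdkn1a, which is not a kinase. Against SEN the numbers were 61 lower and 69 higher for contractile genes and 193 and 127 for the kinases. Over all tested genes 39.9% were lower and 40.7% higher against SEN, and 26.5% lower and 26.3% higher against NC. With total counts alone the numbers against SEN became 33 and 103, and 115 and 223, beside 25.8% and 57.3% of all tested genes. The count of the kinases thus turned round as the calls over all genes shifted. Corrected for the length trend the numbers against SEN were 39 lower and 99 higher for contractile genes and 132 lower and 201 higher for the kinases. Over all tested genes they were 31% and 52.4%. Acta2, the smooth muscle actin, averaged 1145 CPM in BNPMT, 389 CPM in SEN and 2387 CPM in NC (adjusted p = 1.1e-09 against SEN and 1.75e-08 against NC).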

How the data were processed

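The study sequenced polyadenylated RNA in 9 libraries, 3 per group. Per the submitters' processing notes, the tools were fastp, HISAT2 and HTSeq, of unnamed versions, and the genome build was mRatBN7.2. Which annotation was counted, and whether by strand, is not given in the sources used, so overlapping and antisense genes cannot be told apart. The authors deposited whole-number counts per gene and FPKM, whose ratio gives the transcript length used here. CPM is the count scaled to a library's total.

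Genes passing filterByExpr (14956) were tested with the quasi-likelihood F test of edgeR 4.0.16 (R 4.3.3), with TMM scaling, all 9 libraries in a layout of 3 groups and Benjamini-Hochberg adjustment over genes at 0.05. A p-value therefore reflects only how these libraries vary, and that variation may be technical. The model was tested on simulated counts. No 2 libraries were duplicates (chi-square per degree of freedom 3.51 to 33.5 within groups). Log2 changes follow TMM, and folds and CPM follow total counts.

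The members and lists were chosen with earlier results of these data known, and the role groups after the members. Full values are given for the 10 genes with the lowest ratio of BNPMT to the lower other mean, the 10 most abundant in NC, up to 3 per class with at least 3 members and the 3 nearest the limit on each side. Placeholder names were excluded, and the other genes named from a class were among those with the smallest adjusted p against NC in their direction. Beyond that rule, Crispld1 was given as the neighbour of Pi15, and the other members by their means, except that 2 members and 1 list are not reported here. Alternatives were TMM and DESeq2 1.42.0 size factors in the choice, other limits, group medians, total counts alone, DESeq2's Wald test, 2 other filters, leaving out the group outside the contrast, blocking on the replicate number and each library left out. Taking out the length trend of each library by a loess curve (limma 3.58.1 was loaded for edgeR) in the tests was added after seeing the data. Sequences are RefSeq's (GRCr8), matched by symbol.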

Additional observations from a re-analysis of the deposited data

How the results depend on the processing

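The choice found 55 genes, and 233 with a minimum fold of 1.5, 16 with a minimum of 3, 85 with NC at 1 CPM or more and 85 without BNPMT 1 and SEN 1. Leaving out 1 library at a time gave 44 to 79 genes, the highest number without BNPMT 1, and 39 of the 55 were chosen in all 9 of these settings. CPM scaled by TMM factors gave 68 genes, 39 of them among the 55, and by DESeq2 size factors 75 and 38. All 55 genes were called lower in BNPMT against SEN and against NC with TMM, total counts alone and the length trend taken out. They were chosen as low in these same libraries, so such calls describe the choice and test nothing. The median log2 change of the 55 genes in BNPMT against SEN was -2.16 with TMM, -1.66 with total counts alone and -1.82 with the length trend taken out. In SEN against NC it was 0.56, 0.11 and 0.27 under the same 3 settings. Over all tested genes, those called lower in BNPMT against SEN numbered 5969 with TMM and 3857 with total counts alone (8575 higher), and those called higher in SEN against NC 5628 and 3667 (8513 lower). With the length trend taken out, 4632 were lower and 7838 higher in BNPMT against SEN, and 7777 lower and 4395 higher in SEN against NC. The loess curve was taken out together with its level, so that setting also rescaled each library. With it the median log2 change of all genes was 0.320 in BNPMT against SEN and -0.314 in SEN against NC. With TMM these medians were 0.017 and -0.013. The part of length alone, and any other cause of these shifts, was not tested. No alternative reversed the sign of a median or of the change of a named gene of the 55. The balance of lower and higher calls in 2 of the lists turned round, as given with them, while the calls over all tested genes shifted too.

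No pairing by replicate number was seen, as deviations of libraries with equal numbers correlated between -0.18 and 0.04. The lowest value was that of BNPMT 1 with SEN 1, which followed length in opposite directions. These values therefore cannot settle whether the numbers pair the libraries. With a replicate block all 55 genes, chosen as low in these libraries, were called lower in both contrasts. Over all tested genes, 5869 were lower and 5973 higher in BNPMT against SEN, and 3705 lower and 3643 higher against NC. Of the values of named genes under all alternatives, 746 moved by less than the spread between replicates and 46 moved by more, and of those of lists and motifs 211 and 15. The lowest count of a member was 30, so counting error is largest for the rarest genes in BNPMT, and 3 libraries a group limit the precision of every fold.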
